A study of Mus musculus with 12 samples.

Results

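Complement regulators keep the complement cascade of innate immunity in check, and 6 of them were followed through the mouse retina: Serping1, Cfi, Cd46, Cd55, Cd59a and Clu. They were taken by gene symbol from the 25124 genes listed in each of 2 expression tables, and both tables held all 6. Poly(A) RNA of whole retinas from wild-type C57BL/6J mice was measured in 12 libraries, 2 for each of 6 groups. In the single-elevation table, intraocular pressure (IOP) had been raised to 30 mmHg for 1 hour in 1 eye of mice aged 3 or 18 months (3mo IOP, 18mo IOP), and the untreated fellow eyes served as controls (3mo control, 18mo control). In the recurring-elevation table, mice that were 3 months old at the start had received 4 such elevations, given biweekly (4xIOP), again beside their untreated fellow eyes (4xIOP control). All retinas were taken 2 days after the last elevation. Every control eye came from a mouse whose other eye had been treated, so none of the 6 groups stands for a mouse without a pressure elevation. Which control and treated library share a mouse is not given in the sources used here. The 2 libraries of each group are described as biological replicates. P-values rest on their spread pooled over all groups of a table and drawn toward a trend over all genes. A standard error is therefore not the spread of only the 2 groups compared.

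Complement can start when C1q binds a surface and its partner proteases C1r and C1s cut C4 and C2. The enzymes so formed cut C3, whose fragments tag surfaces for phagocytes, and a late step can assemble a pore called the membrane attack complex. Regulators act at each step. Serping1 encodes C1 inhibitor, which inactivates C1r and C1s. Cfi encodes factor I, a protease that cuts C3b and C4b with the help of cofactors such as the membrane protein Cd46. Cd55 speeds the decay of the enzymes that cut C3. Cd59a blocks the closing step of the pore, and Clu encodes clusterin, a secreted chaperone that also binds the forming pore. In the retina, microglia are a known source of C1q and Muller glia a known source of clusterin.

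Because the results turn on 3 secreted regulators, the opening 90 coding bases of each are shown from the GENCODE M21 transcripts, 5′ to 3′, with the start codon in capitals. Serping1 lies on the minus strand of mm10 at chr2:84765360-84775429, Cfi on the plus strand at chr3:129836739-129875332 and Clu on the plus strand at chr14:65968483-65981548. The annotation places no other gene over any of the 3 loci. None of the 1719, 2030 and 1761 windows of 50 bases in their transcripts occurs in a transcript of another gene.
Serping1: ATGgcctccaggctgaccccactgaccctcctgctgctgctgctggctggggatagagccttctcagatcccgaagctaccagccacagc
Cfi: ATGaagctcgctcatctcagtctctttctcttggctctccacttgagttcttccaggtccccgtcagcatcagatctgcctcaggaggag
Clu: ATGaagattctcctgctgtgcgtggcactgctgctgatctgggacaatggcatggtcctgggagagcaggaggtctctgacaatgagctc

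For Cd59a and Cd55 the sequence bears on what was measured, since mice carry a close second copy of each. Cd59a (plus strand, chr2:104095801-104115410) and Cd59b were identical at 85.0% of 354 aligned coding bases, and 4.26% of the 50-base windows of the Cd59a transcript also occur in Cd59b. The first 90 coding bases differ at 4 positions, printed in capitals.
Cd59a: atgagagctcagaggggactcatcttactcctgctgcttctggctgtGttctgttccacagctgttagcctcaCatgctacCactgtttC
Cd59b: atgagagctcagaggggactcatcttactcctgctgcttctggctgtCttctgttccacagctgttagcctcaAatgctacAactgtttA
Cd55 (minus strand, chr1:130439026-130462744) and Cd55b were identical at 91.8% of 1146 aligned coding bases, and 15.5% of the Cd55 windows also occur in Cd55b or in Gm16083, an antisense gene over the Cd55 locus. A stretch of 90 coding bases with 13 differences, in capitals, is shown from both.
Cd55: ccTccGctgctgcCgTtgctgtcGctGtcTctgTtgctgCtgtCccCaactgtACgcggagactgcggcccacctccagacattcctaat
Cd55b: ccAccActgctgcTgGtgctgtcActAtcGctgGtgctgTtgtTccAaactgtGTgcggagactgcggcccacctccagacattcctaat
The authors kept uniquely mapped reads, so reads from stretches that the copies share are left out of the values. The levels of Cd59a and Cd55 are uncertain to that extent. For Cd55 the windows shared with Cd55b were not counted apart from those shared with Gm16083. Cd46 lies on the minus strand at chr1:195041238-195092248, where the annotation also places Gm37132 on the same strand and Gm37366 on the other. Of the 50-base windows of its 6288-base GENCODE transcript, longer than the isoforms the authors counted, 16.5% also occur in transcripts annotated to A330023F24Rik, Mir29b-2 or Mir29c. Whether these windows lie in the isoforms counted was not tested.

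Levels are given as FPKM, the reads of a gene divided by the length of its transcript and by the depth of the library, so that genes can be compared. Clu had the highest FPKM of the 6 regulators in all 12 libraries, from 128 to 1718, and made up between 79.9% and 93.8% of their summed FPKM. Cd59a ranged from 9.99 to 47.4 FPKM and Serping1 from 1.42 to 80.2 FPKM. Cd59a stood above Serping1 in both libraries of each control group and of the 3mo IOP group. The order was turned in both 4xIOP libraries and in 1 of the 2 18mo IOP libraries, where the ranges of the pair overlapped. Cfi ranged from 0.525 to 4.73 FPKM and Cd46 from 0.343 to 1.36 FPKM, and their ranges overlapped in the 3mo control and 4xIOP control groups. Cd55 was lowest throughout, from 0 to 0.562 FPKM. The 2 tables were normalized separately, so levels in one are only set beside those in the other.

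Tests used limma on log2(FPKM + 0.5) over the 13731 and 13718 genes whose mean in a table reached 0.5 FPKM. Serping1, Cfi, Clu, Cd59a and Cd46 passed this filter in both tables and Cd55 in neither. Calls required an adjusted p (Benjamini-Hochberg, over the genes tested) no larger than 0.05 together with a log2 fold change of 1 or more, up or down. Depth was 39766233 to 59455058 mapped tags per library. For Cd55, the weakest member, 3 reads came to 0.0271 FPKM in the library where it was listed at 0, a limit that covers counting error only. Libraries also differed in how short transcripts (under 1000 bases) compared with long ones (4000 bases or more). Their median FPKM had a ratio of 3.03 and 9.12 for the 3mo controls, of 7.04 and 5.47 for the 3mo IOP eyes, between 1.52 and 1.89 in the 18-month libraries and between 1.97 and 2.91 in the recurring table. The defining markers of rods, Muller glia, microglia and ganglion cells were above 0 in every library.

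The 3 regulators that were called, Serping1, Cfi and Clu, were all higher. In bulk retina, more cells of a type and more RNA per cell cannot be told apart. With age 2 of the 5 tested regulators, Serping1 and Clu, were called in control eyes and the same 2 in IOP eyes, where 23.2% and 21.8% of all tested genes were called and 11.6% and 10.2% were called higher. In control eyes 1595 genes were called higher and 1590 lower, and with median-of-ratios size factors 1056 and 1959. With 1 elevation 1 of 5, Serping1, was called at 3 months (0.575% of all genes, 0.568% higher) and 0 of 5 at 18 months (0.124%, 0.117% higher). With 4 elevations 3 of 5 were called, Serping1, Cfi and Clu (6.15%, 5.45% higher). Regulators that were higher without overlap numbered 3 of 5 with age in control eyes (45.7% of all genes), 2 in IOP eyes (43.2%), 3 with IOP at 3 months (28.6%), 4 at 18 months (36.5%) and 4 with 4 elevations (27.7%). At 18 months with 1 elevation, limma left 3 of the 5 with an unadjusted p under 0.05, against 9.45% of all genes. The median log2 fold change of the 5 was 0.54 and 0.22 with age in control and IOP eyes, 1.21 and 1.06 with 1 elevation at 3 and 18 months and 1.51 with 4, beside 0.16, 0.09, 0.13, 0.09 and 0.10 for all tested genes. Median-of-ratios scaling brought the median of all genes with age in control eyes from 0.16 to 0.01 and with IOP at 3 months from 0.13 to -0.04. Above the median of all genes, Serping1 changed by 1.05 and Clu by 1.09 in the first of these and Serping1 by 2.42 in the second, where its call was lost with this scaling (adjusted p = 0.0640).

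**Figure D1:**
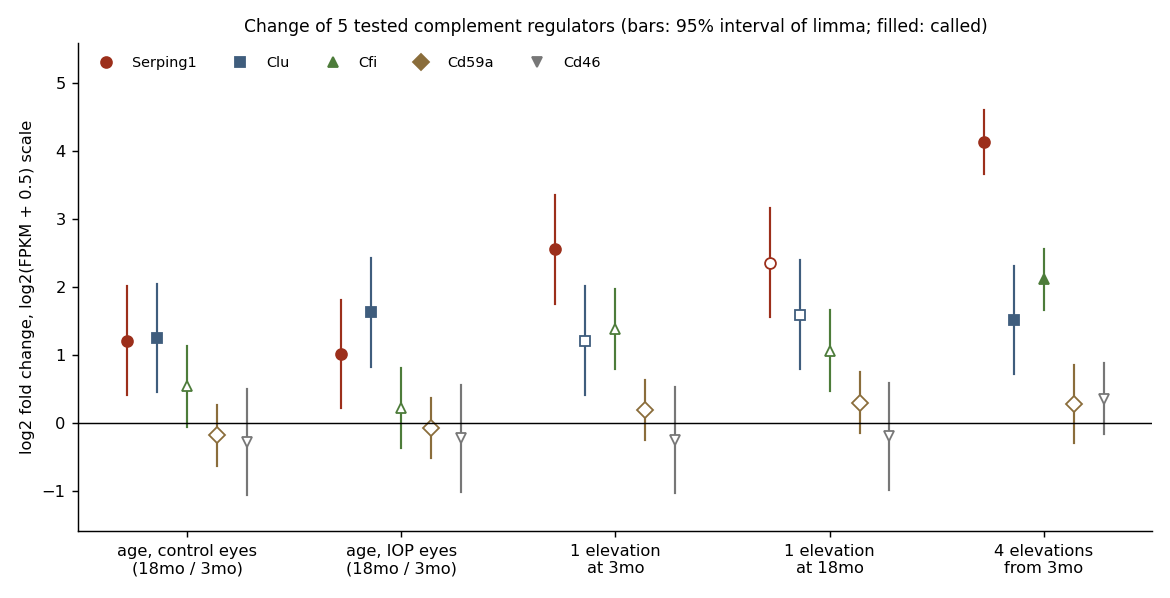
Log2 fold change on the log2(FPKM + 0.5) scale (vertical axis) of the 5 tested regulators in 5 comparisons (horizontal axis). Bars are 95% intervals from limma and filled symbols are called. Serping1 reached 4.13 after 4 elevations and 2.55 after 1 elevation at 3 months, and the intervals of Cd59a and Cd46 included 0 in all 5 comparisons.

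Serping1, which encodes the inhibitor of the first proteases of the cascade, had the largest log2 fold change with IOP of the 5 tested regulators in each of the 3 pairs of groups. It read 3.86 and 4.00 FPKM in the 3mo control libraries and 28.5 and 22.9 FPKM in the 3mo IOP libraries. Both treated retinas lay far above both controls, and the means of 3.93 ± 0.103 and 25.7 ± 3.95 FPKM (SD, n = 2) differed 6.53-fold. The log2 fold change was 2.55 (SE 0.349, adjusted p = 0.0325 by limma). The call was lost without the first 3mo control library or without either 3mo IOP library, with values between 2.40 and 2.71 and adjusted p-values of 0.149, 0.270 and 0.103. It was also lost with no filter, median-of-ratios size factors, voom, and length and GC trends removed, with values between 2.26 and 2.55 and adjusted p-values up to 0.130. At 18 months it read 9.77 and 9.71 FPKM in the control libraries and 33.7 and 80.2 FPKM in the IOP libraries. The groups again did not overlap, but the 2 treated retinas differed from each other by more than the whole range of the younger eyes. The log2 fold change of 2.36 (SE 0.349) had an adjusted p of 0.0710 and was not called. Without the first 18mo IOP library it was 2.98 and was called, with an adjusted p of 0.00229, while without the second it was 1.74.

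After 4 elevations the separation of Serping1 was widest. It read 1.42 and 1.45 FPKM in the 4xIOP control libraries, from 102 and 111 reads, and 29.4 and 38.0 FPKM in the 4xIOP libraries, from 2991 and 2906 reads. The means of 1.43 ± 0.0226 and 33.7 ± 6.05 FPKM (SD, n = 2) differed 23.5-fold. The log2 fold change was 4.13 (SE 0.215, adjusted p = 1.28e-07), and Serping1 ranked 12th by p-value among the 13718 genes tested. The values of 2.55 after 1 elevation at 3 months and 4.13 after 4 elevations come from tables with different controls and different precision, and the difference between them was not tested.

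Serping1 was also higher in old than in young retinas. Between the untreated eyes it rose 2.48-fold in mean FPKM, with a log2 fold change of 1.21 (SE 0.349, adjusted p = 0.0247). The 2 libraries of each age lay within 0.2 FPKM of each other and the ages did not overlap. Between the treated eyes the log2 fold change was 1.01 (SE 0.349, adjusted p = 0.0470). That call was lost without the second 18mo IOP library, where the value was 0.39, and without the first or the second 3mo IOP library, where it was 1.17 and 0.86. It held without the first 18mo IOP library (1.63). It also held in only 5 of 11 other settings, and was lost with no filter, median-of-ratios size factors, voom, either replicate block and only the 2 groups compared, with adjusted p-values up to 0.0937. In control eyes the call was lost when any 1 of the 4 libraries was left out, with values between 1.19 and 1.23 and adjusted p-values between 0.0656 and 0.0993, and also with no filter (0.0528) and voom (0.0769).

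**Figure D2:**
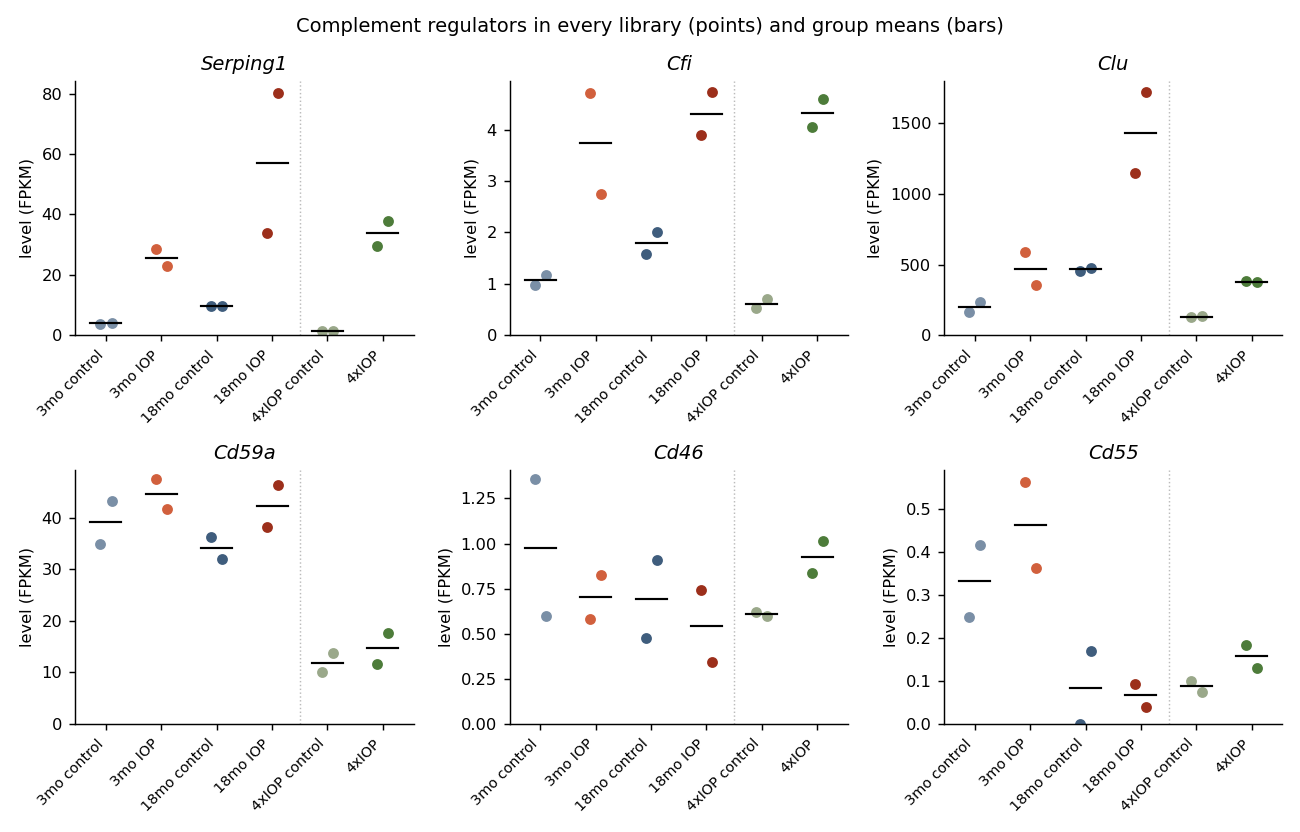
FPKM of the 6 complement regulators (vertical axes, linear, each from 0) in the 6 groups (horizontal axes). Points are libraries, 2 per group, bars are group means, and the dotted line separates the single-elevation from the recurring-elevation table. Serping1, Cfi and Clu stood higher in IOP than in control eyes without overlap in all 3 pairs of groups, whereas Cd59a and Cd46 overlapped in 2 of them.

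Cfi, the protease that cuts C3b and C4b, was a weakly expressed gene that moved in the same direction. It read 0.983 and 1.18 FPKM in the 3mo control and 4.71 and 2.75 FPKM in the 3mo IOP libraries. It read 1.58 and 2.01 FPKM in the 18mo control and 3.88 and 4.73 FPKM in the 18mo IOP libraries. Treated and control eyes did not overlap at either age, with 3.45-fold and 2.39-fold differences in mean FPKM. The log2 fold changes of 1.38 (SE 0.259, adjusted p = 0.0727) and 1.06 (SE 0.259, adjusted p = 0.170) were not called. After 4 elevations it stood at 4.05 and 4.59 FPKM, against 0.525 and 0.700 FPKM in the fellow eyes. This 7.05-fold difference in means was called, with a log2 fold change of 2.12 (SE 0.207, adjusted p = 1.84e-05). With age, Cfi differed by 0.54 on the log2 scale in control eyes (adjusted p = 0.12) and by 0.22 in IOP eyes (adjusted p = 0.514), and neither was called. Age groups of untreated eyes did not overlap for Cfi, whereas those of treated eyes did.

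Clu was the regulator whose level was already high. It read 165 and 233 FPKM in the 3mo control libraries, 586 and 353 FPKM in the 3mo IOP libraries, 456 and 477 FPKM in the 18mo control libraries and 1149 and 1718 FPKM in the 18mo IOP libraries. Untreated old retinas thus lay between the 2 treated young retinas, and the 2 treated old retinas lay above all others of the table. With age Clu rose in control eyes by 1.25 on the log2 scale (SE 0.349, adjusted p = 0.0222) and in IOP eyes by 1.63 (SE 0.349, adjusted p = 0.0113). With IOP the log2 fold changes of 1.21 at 3 months (adjusted p = 0.255) and 1.59 at 18 months (adjusted p = 0.135) were not called, although both treated libraries exceeded both controls at each age.

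After 4 elevations Clu read 383 and 377 FPKM, against 128 and 138 FPKM in the 4xIOP control libraries. The 2.86-fold difference in means had a log2 fold change of 1.51 (SE 0.364, adjusted p = 0.0190) and was called. The call was lost without either control library, with adjusted p-values of 0.798 and 0.813 and log2 fold changes of 1.46 and 1.57, and with no filter on low values, with an adjusted p of 0.102. The age calls of Clu were lost too when single libraries were left out. In control eyes this held without the first 3mo control library and without either 18mo control library (values 1.00, 1.22 and 1.28), and with no filter on low values (adjusted p = 0.0754). In IOP eyes it held without the second 3mo IOP library (1.26) and without the second 18mo IOP library (1.34).

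Cd59a and Cd46 did not pass the test in any comparison, and Cd55 was not tested. Cd59a, which guards cells against the pore, read 34.9 and 43.2 FPKM in the 3mo control, 47.4 and 41.6 FPKM in the 3mo IOP, 36.2 and 32.0 FPKM in the 18mo control and 38.1 and 46.3 FPKM in the 18mo IOP libraries. Only the 18-month pair did not overlap, where treated eyes were higher. In the recurring table it read 9.99 and 13.8 FPKM in control and 11.7 and 17.7 FPKM in treated eyes, which overlapped. The log2 fold changes with IOP were 0.19 at 3 months (95% interval -0.26 to 0.64), 0.30 at 18 months (-0.15 to 0.74) and 0.28 after 4 elevations (-0.29 to 0.86). With age they were -0.19 in control eyes (-0.63 to 0.26) and -0.08 in IOP eyes (-0.52 to 0.37). These age values became positive, 0.41 and 0.49, when the trends with transcript length and GC content were removed from each library. The 3-month IOP value fell to -0.07 with the length trend removed.

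Cd46, a cofactor for factor I, was close to 1 FPKM or below it. It read 1.36 and 0.596 FPKM in the 3mo control, 0.583 and 0.825 FPKM in the 3mo IOP, 0.478 and 0.907 FPKM in the 18mo control and 0.743 and 0.343 FPKM in the 18mo IOP libraries. All 4 groups overlapped, and these values rest on 38 to 105 reads. The log2 fold changes lay between -0.28 and -0.20 in the 4 comparisons of the table, with adjusted p-values from 0.517 to 0.999. In the recurring table the treated libraries read 0.837 and 1.01 FPKM, above 0.623 and 0.598 FPKM in the controls, with a log2 fold change of 0.36 (SE 0.239, adjusted p = 0.621). The 2 tables list different Cd46 transcripts, of 1862 and 1936 bases.

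Cd55, the decay accelerator, was below the filter. It read 0.248 and 0.415 FPKM in the 3mo control, 0.562 and 0.362 FPKM in the 3mo IOP, 0 and 0.169 FPKM in the 18mo control and 0.094 and 0.040 FPKM in the 18mo IOP libraries. These values rest on at most 77 reads, and on 0 to 20 in the 18-month libraries. All 4 young libraries lay above all 4 old ones, but the share of all genes with this pattern was not counted. Separation with age was common, since 45.7% of tested genes in control eyes and 43.2% in IOP eyes were higher without overlap. A fit of all detected genes, without the filter, gave log2 fold changes with age of -0.52 in control eyes (adjusted p = 0.0766) and -0.76 in IOP eyes (adjusted p = 0.0307), both short of the fold required for a call. With 4 elevations it read 0.184 and 0.131 FPKM against 0.1 and 0.075 FPKM, and the same kind of fit gave 0.16 (adjusted p = 0.523). Its paralogue Cd55b had 0.018 FPKM in 1 3mo control library and was listed at 0 in the other 11.

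RefSeq promoter sequences, of which the 250 bases before the start of the gene were searched, were at hand for Cd55, Cd59a and Cd46 (GRCm38.p6). On both strands 5 motifs were searched. Cd59a held 1 match to an interferon response element, a pattern found in 2.98% of the 32851 promoters listed. No match to TTCNNNGAA (STAT, 7.02% of promoters), TGANTCA (AP-1, 6.75%), TTGCNNCAA (C/EBP, 1.74%) or the NF-kB motif (0.356%) lay in these 3 windows.

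Whether the response to 1 elevation differed with age was tested as an interaction. The difference between the responses at 18 and at 3 months was 0.38 for Clu (95% interval -0.76 to 1.51), -0.20 for Serping1 (-1.33 to 0.94), -0.32 for Cfi (-1.16 to 0.52), 0.11 for Cd59a (-0.52 to 0.74) and 0.06 for Cd46 (-1.06 to 1.17). None of these 5 was called by limma, nor was any of the 13731 genes (0%), and 218 of them (1.59%) had an unadjusted p under 0.05, none of them among these 5. For Serping1, Clu, Cfi and Cd46 the bounds farthest from 0 exceed a doubling, so differences of that size are not excluded. The comparisons of the single-elevation table share groups with each other and are not independent.

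Several cell type markers moved with the groups. The counts called here and in the next paragraph stand beside the shares of all tested genes that were called. With age these were 23.2% in control and 21.8% in IOP eyes. With IOP they were 0.575% at 3 months, 0.124% at 18 months and 6.15% after 4 elevations. The summed FPKM of 7 microglia and leukocyte markers was 18.8 to 25.4 in 3mo control and 32.5 to 38.0 in 3mo IOP eyes (0 of 7 called), and 9.90 to 10.1 in 4xIOP control and 49.98 to 52.9 in 4xIOP eyes (6 of 7 called higher). None of the 7 markers was at 0 in any library. In 18mo IOP eyes the sums were 92.0 and 34.9, against 39.5 and 41.1 in the controls. There the library with the higher sum had the lower Serping1, Cfi and Clu of the pair. Their part in the results was not tested.

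Other markers moved too. The 6 Muller glia markers summed to 463 to 593 FPKM in 3mo control and 946 to 1211 FPKM in 18mo control eyes, with 3 of 6 called higher, beside the higher Clu. After 4 elevations their sum was lower, 443 to 565 against 742 to 777 FPKM, while Clu was higher. The single markers were split there, with 4 higher and 2 lower without overlap. Of the 6, 1 was called higher and 0 lower, and their median log2 fold change was 0.44. The 6 endothelial markers, all called higher with age, summed to 8.78 to 12.1 FPKM in 3mo control and 63.8 to 64.0 FPKM in 18mo control eyes. The 6 pigment epithelium markers summed to 170 to 214 FPKM in the 3mo control and 15.8 to 23.9 FPKM in the 18mo control libraries, and the 6 ganglion cell markers to 302 to 613 and 32.4 to 73.0 FPKM. With 1 elevation at 3 months the sum of the 6 stromal and mural markers was 31.9 to 98.5 FPKM, against 5.81 to 6.01 FPKM in controls, and 2 of the 5 tested were called higher. With 4 elevations the sum of the 6 lens markers was 24.1 to 44.9 FPKM, against 0.348 to 2.54 FPKM in controls, with 3 of the 3 tested called higher. There the 6 pigment epithelium markers summed to 30.9 to 40.03 FPKM in control and 6.72 to 11.2 FPKM in treated eyes (3 of the 4 tested called lower), and the endothelial markers to 25.0 to 32.3 and 53.5 to 56.8 FPKM (1 of 5 called higher). With 1 elevation at 18 months the Muller glia sum was 1218 to 1372 FPKM in treated eyes and the endothelial sum 88.9 to 91.0 FPKM, both above the controls, with 0 of 6 called in each list. Between treated eyes of 3 and 18 months the endothelial sum was 12.1 to 14.8 and 88.9 to 91.0 FPKM, and the ganglion cell sum 432 to 492 and 30.1 to 81.7 FPKM, with 6 of 6 called in each list. In the same groups the Muller glia sum was 480 to 649 and 1218 to 1372 FPKM (4 of 6 called higher), beside the higher Clu, and the pigment epithelium sum 91.8 to 248 and 15.2 to 22.8 FPKM (4 of the 5 tested called lower). The 6 rod markers summed to 20182 to 23098 FPKM in 3mo control, 20136 to 20807 FPKM in 3mo IOP, 14907 to 16695 FPKM in 18mo control and 11308 to 13500 FPKM in 18mo IOP eyes. In the recurring table they summed to 8909 to 9300 FPKM in 4xIOP control and 4395 to 6596 FPKM in 4xIOP eyes. The 5 blood markers varied from 14.4 to 328 FPKM over the 12 libraries. The part of these shifts in the results was not tested. For the ratio of short to long transcripts, which differed between the ages, a fit without each library's length trend was made, and there Serping1 differed by 1.28 and Clu by 1.32 between control eyes of the 2 ages, both still called.

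The components that these regulators act on can be set beside them. Of 20 genes for complement activation 9 could be tested in each table. With age 5 of 9 were called higher in control eyes, and 4 higher and 1 lower in IOP eyes. Of all tested genes 11.6% were called higher in control eyes, and 10.2% higher and 21.8% either way in IOP eyes. Of the 5 calls in control eyes 2 held without the second 18mo control library and 3 without the first, and of the 5 in IOP eyes 3 held without either 3mo IOP library. With 1 elevation 1 was called at 3 months (0.575% of all tested genes) and 2 at 18 months (0.124%). With 4 elevations 8 of 9 were called (6.15%). Their median log2 fold changes with IOP were 1.54, 1.07 and 3.33 in these last 3 comparisons, and 1.04 and 0.94 with age. The 9 genes were not the same in both tables, since C2 was tested only in the single-elevation table and Cfb only in the recurring one. C4b, the mouse C4 gene whose product is cut by C1s and inactivated by factor I, had the smallest p of all other complement genes with age and with 1 elevation. It read 0.576 and 0.544 FPKM in 3mo control, 6.94 and 5.47 FPKM in 3mo IOP, 5.22 and 7.34 FPKM in 18mo control and 23.6 and 32.3 FPKM in 18mo IOP libraries. Treated young and untreated old retinas overlapped in C4b, and the treated old ones were highest. The log2 fold changes were 2.65 at 3 months (adjusted p = 0.0158), 2.07 at 18 months (adjusted p = 0.0443), and 2.66 with age in control eyes (adjusted p = 0.00265). The first of these calls was lost without the first 3mo control or either 3mo IOP library (values from 2.49, adjusted p up to 0.125), and the second without either 18mo control or the second 18mo IOP library (values from 1.84, adjusted p up to 0.311). At 18 months the calls of C4b and C3 also held in only 3 of 11 other settings each, and both were lost with a pseudocount of 0.1, no filter, median-of-ratios size factors, voom, either replicate block, length and GC trends removed and only the 2 groups compared, with adjusted p-values up to 0.150 for C4b and 0.172 for C3.

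C3, the central component and a substrate of factor I once activated, read 0.146 and 0.271 FPKM in 3mo control and 0.975 and 1.43 FPKM in 3mo IOP libraries. It read 0.582 and 0.465 FPKM in 18mo control and 7.40 and 22.4 FPKM in 18mo IOP libraries. In the treated old pair it was the library with more Serping1 that had more C3. Its log2 fold change at 18 months was 3.72 (SE 0.438, adjusted p = 0.0443), a call lost without either 18mo control library (adjusted p up to 0.311). Between treated eyes of the 2 ages it was 3.00 (adjusted p = 0.00470). With 4 elevations C3 read 18.8 and 17.6 FPKM against 0.158 and 0.209 FPKM, a log2 fold change of 4.78 (SE 0.191, adjusted p = 1.52e-08), the smallest p of the other complement genes there, followed by C1qb at 3.68 and C1qc at 3.26 (adjusted p = 1.98e-07 and 6.03e-07).

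At the first step of the cascade, Serping1 can be set beside its targets. C1ra and C1s1, which encode C1r and C1s, read at most 3.37 FPKM in any library, below Serping1 in each of the 12. C1s1 was at 0.333 and 0.239 FPKM in 3mo control and 2.60 and 1.17 FPKM in 3mo IOP eyes, a log2 fold change of 1.54 (adjusted p = 0.0869). C1ra was at 0.631 and 0.668 FPKM in 18mo control and 1.86 and 3.37 FPKM in 18mo IOP eyes, a log2 fold change of 1.40 (adjusted p = 0.115). Both were called with 4 elevations, at 1.78 for C1s1 and 2.21 for C1ra. C1qa, a chain of the recognition molecule, read 22.9 and 25.6 FPKM in 18mo control against 5.17 and 8.09 FPKM in 3mo control eyes, a log2 fold change of 1.83 (adjusted p = 0.00574). Cfp, which encodes properdin, a protein that steadies the C3-cutting enzyme, differed by 0.86 in that comparison (adjusted p = 0.00963), short of the fold required for a call.

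**Figure D3:**
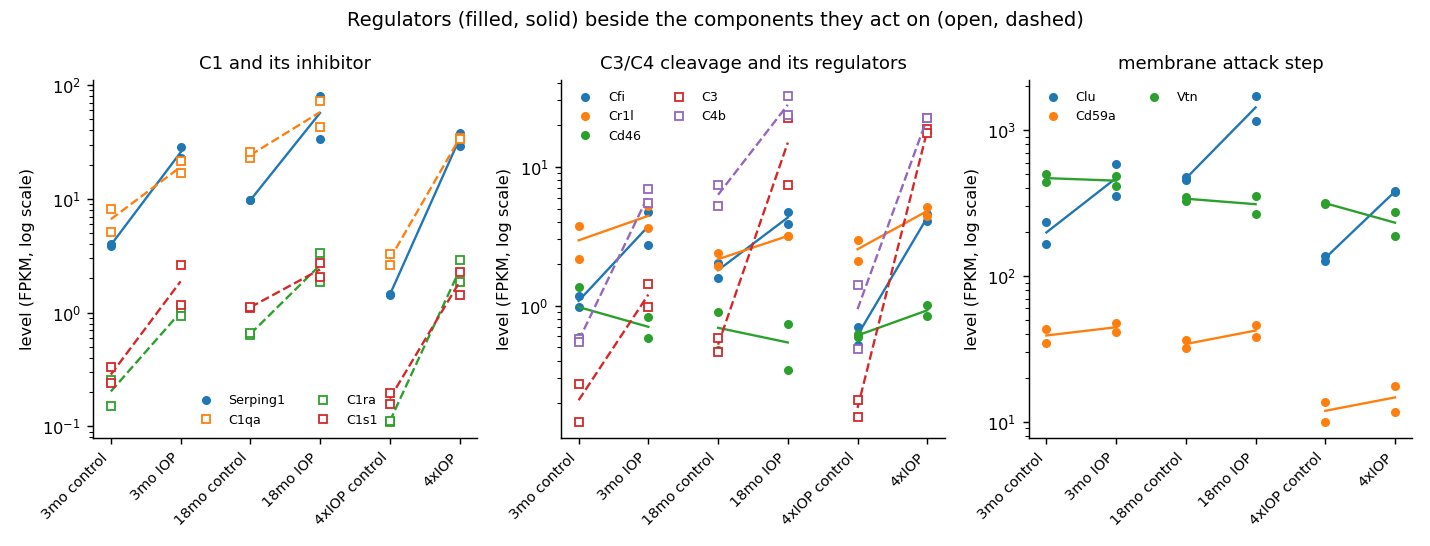
FPKM on a logarithmic vertical axis in the 6 groups (horizontal axis), with points for libraries and lines joining the means of control and IOP eyes. Regulators are filled with solid lines and activating components open with dashed lines, arranged by step of the cascade. In both 4xIOP libraries C3 (17.6 and 18.8 FPKM) and C4b (22.3 and 22.4 FPKM) stood above Cfi, and Clu in IOP eyes stood above Clu in control eyes while Cd59a overlapped in 2 of the 3 pairs.

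Of 12 other complement regulators 7 could be tested in each table. With age limma called 2 of the 7 in control eyes and 0 in IOP eyes, against 23.2% and 21.8% of all tested genes. In IOP eyes 3 of the 7 had an unadjusted p under 0.05, as did 7273 of the 13731 genes tested. Susd4, a regulator with sushi domains, and Thbd, which encodes thrombomodulin, were called higher with age in control eyes. Susd4 read 8.96 and 13.3 FPKM at 18 months and 5.54 and 4.46 FPKM at 3 months, a log2 fold change of 1.06 (adjusted p = 0.0242). Thbd read 0.835 and 0.840 FPKM at 18 months and 0.194 and 0.124 FPKM at 3 months, a log2 fold change of 1.02 (adjusted p = 0.0216). Both calls were lost without the second 3mo control or either 18mo control library, with adjusted p-values up to 0.152 and 0.0997. Both were also lost with median-of-ratios size factors and with the length trend removed. With IOP limma called 0 of the 7 at 3 months (0.575% of all tested genes), at 18 months (0.124%) and after 4 elevations (6.15%). There 1, 0 and 1 of the 7 had an unadjusted p under 0.05. Their median log2 fold change was 0.21, 0.13 and 0.29, over sets that differ between the tables by 1 gene, Cd59b in the first and Csmd1 in the second. Of 8 complement receptors, 3 could be tested in the single-elevation table and 5 in the recurring one. All 3 were called higher with age in control eyes and 1 (Itgam) in IOP eyes, beside 11.6% and 10.2% of all tested genes. With 1 elevation 0 were called at 3 or 18 months, beside 0.575% and 0.124%. With 4 elevations 5 of 5 were called higher, beside 5.45%, and their median log2 fold change was 2.32. In control eyes 0 of the 3 calls held without the second 3mo control or either 18mo control library or with a pseudocount of 1, and 1 of 3 held without the first 3mo control library or with the length trend removed. In IOP eyes the call held only without the second 18mo IOP library when single libraries were left out. With 1 elevation limma gave an unadjusted p under 0.05 for 3 of the 3 at 3 months and 2 at 18 months. Receptors such as Itgam are carried by microglia and leukocytes, whose markers moved as given above.

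Genes with the most similar pattern were sought for each called regulator, by the root-mean-square difference of log2(FPKM + 0.5), centred within each table, over 12 libraries and 13058 genes. For Serping1, whose own root-mean-square spread was 1.65, they were Fgf2, a growth factor (0.34), Cebpd, a transcription factor (0.38), and Bcl3, an atypical I kappa B protein (0.44). Fgf2 read 1.36 and 1.18 FPKM in 3mo control and 13.3 and 51.5 FPKM in 18mo IOP libraries, with the higher value in the library that was higher for Serping1. For Clu, with a spread of 0.96, they were Pros1, which encodes protein S (0.21), Pdlim4 (0.23) and Rab20 (0.23). For Cfi, with a spread of 0.83, they were Ifi30, a lysosomal thiol reductase (0.15), Parp3 (0.19) and Igfbp7 (0.20). These are descriptions of likeness over libraries that share groups and depth, and no test was made.

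**Figure D4:**
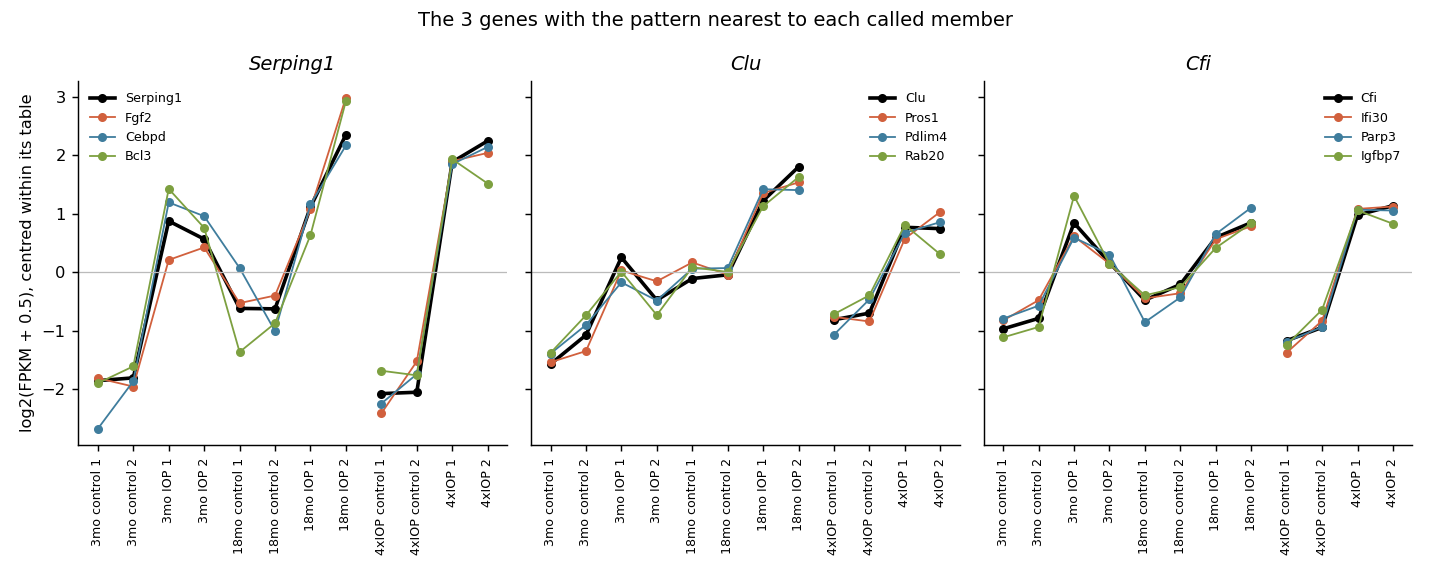
Log2(FPKM + 0.5), centred within each table (vertical axis), in the 12 libraries (horizontal axis, replicate number last) for Serping1, Clu and Cfi (black) and the 3 genes nearest to each. Lines break between the tables. The genes were chosen for this likeness, and in each panel the second 18mo IOP library and both 4xIOP libraries lay above the centre.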

How the data were processed

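The authors prepared strand-specific poly(A) libraries from whole retina in TRIzol, aligned reads to mm10 with STAR (2.7.8a per the labels) and counted uniquely mapped tags in exons with HOMER, keeping 1 isoform per locus. The deposited values are FPKM, divided by the length of that isoform and by the tags of the library, in 2 tables normalized separately, and replicates were not pooled. No further scaling was stated. The authors' own tests used DESeq2. Both tables listed the same transcript for 91.66% of genes.

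Groups came from the labels, with 2 libraries each. The tags per library and the reads per gene were recovered from FPKM and transcript length; all values checked came within 0.12 reads of a whole number. Values log2(FPKM + 0.5) of genes whose mean reached 0.5 FPKM were fitted with limma 3.58.1 (lmFit, eBayes with a trend) in R 4.3.3, with 8 libraries as 4 groups (4 residual degrees of freedom, prior 4.12) and 4 libraries as 2 groups (2, prior 10.6). P-values were Benjamini-Hochberg adjusted over all genes tested, and the interaction was called by adjusted p alone. The added 0.5 makes fold changes of weak genes smaller than their FPKM ratio. The steps were checked on simulated data. Sequences came from GENCODE M21 and RefSeq, windows and alignments from Python 3.11.15 and Biopython 1.88.

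The 6 regulators, the lists of other complement genes and markers, and the tests were chosen with earlier results of these data known. Other complement genes were named where they had the 3 smallest p-values of a comparison, or were other regulators that were called; the 3 nearest genes were named per called regulator. Alternatives were pseudocounts of 0.1 and 1, no filter, a filter at 2 FPKM, median-of-ratios size factors, removal of the length trend (spline with 5 degrees of freedom), voom on recovered reads, a replicate block, only the groups compared, calls without the fold and leaving out each library. Removal of length and GC trends and a crossed replicate block were chosen after seeing the data. GC content was known for 99.4% and 99.3% of tested genes. Of the other complement regulators, 1 gene is not reported here and is left out of the list's counts. The fit with voom, a count method, is an alternative only.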

Additional observations from a re-analysis of the deposited data

Results flagged for a closer look

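Thbd, which encodes thrombomodulin, was higher with 1 elevation at 3 months and slightly lower at 18 months, in both without overlap of the groups. Its mean FPKM was 0.159 in 3mo control and 1.07 in 3mo IOP eyes, and 0.838 in 18mo control and 0.720 in 18mo IOP eyes. The ratio of means at 18 months was 0.86, and limma called neither change. The share of all genes lower without overlap was not counted. The interaction of IOP with age in limma was -1.33 on the log2 scale (SE 0.401), with an adjusted p of 1.00 and an unadjusted p of 0.0102, so the difference did not pass the test.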

How the results depend on the processing

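With age in control eyes, the count of 2 called regulators became 0 with no filter on low values and 1 with voom, and lay between 0 and 1 when a library was left out. With age in IOP eyes, 2 became 1 with no filter, median-of-ratios size factors, voom, the replicate block, the crossed replicate block (chosen after seeing the data) and only the 2 groups compared, and lay between 0 and 2 with a library left out. With 1 elevation at 3 months, 1 became 0 with no filter, median-of-ratios size factors, voom, and length and GC trends removed, and lay between 0 and 1 with a library left out; at 18 months 0 became at most 1. With 4 elevations, 3 became 2 at the lowest with a library left out. The cause was not tested. The lone library of a group was then assumed to vary like the other groups. Replicate numbers were not taken as pairs. Same-numbered control and IOP libraries deviated from their group means with correlations of -0.28, -0.53 and -0.29. With 2 libraries per group the crossed pairing has the same values with the opposite sign. Which libraries share a mouse cannot be told from these values. The replicate block moved the count over all genes from 79 to 53 with 1 elevation at 3 months and from 17 to 0 at 18 months, and the crossed pairing gave 66 and 0.

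Directions turned for regulators that were not called. With length and GC trends removed, Cd59a was 0.41 and Cd46 0.58 with age in control eyes, Cd59a 0.49 and Cd46 0.56 in IOP eyes, and the interaction of Cd46 was -0.013. With the length trend alone removed, Cd59a was 0.12 with age in IOP eyes and -0.074 with IOP at 3 months, where it was -0.0035 with median-of-ratios size factors and -0.0034 with voom. With a library left out, Cd46 ranged from -0.66 to 0.098 and from -0.51 to 0.053 with age in control and IOP eyes, from -0.63 to 0.13 and from -0.48 to 0.084 with IOP at 3 and 18 months, and from -0.32 to 0.44 in the interaction. Cd59a ranged from -0.22 to 0.060 with age in IOP eyes, from -0.044 to 0.26 in the interaction and from -0.0063 to 0.57 with 4 elevations. Cfi ranged from -0.12 to 0.56 with age in IOP eyes and from -0.66 to 0.022 in the interaction, and Serping1 from -0.81 to 0.42 in the interaction. Outside the interaction, Serping1 and Clu were positive in all 74 alternative values each, and Cfi in 73 of 74. Over all genes, alternatives called between 1176 and 4717 with age in control eyes (3185 in the main test), 722 and 3532 in IOP eyes (3000), 0 and 257 with IOP at 3 months (79), 0 and 144 at 18 months (17), 475 and 967 with 4 elevations (843), and 0 and 2 in the interaction (0). Read counts were low for Cd55 (0 to 77) and Cd46 (38 to 105), and for Cfi in the 4xIOP control libraries (43 and 61).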

Other observations

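C2, the protease partner of C4 in the first C3-cutting enzyme, was highest in the 3mo IOP libraries. It read 0.367 and 0.247 FPKM in 3mo control and 5.27 and 2.01 FPKM in 3mo IOP libraries, but 0.235 and 0.098 FPKM in 18mo control and 0.194 and 0.064 FPKM in 18mo IOP libraries. The 3mo IOP libraries stood above the other 6 of that table, as they did for Masp1, at 0.15 and 0.134 FPKM against at most 0.102 FPKM, a gene named after its values were seen. How many of all genes had this pattern was not counted. The summed stromal and mural markers had it too, at 98.5 and 31.9 FPKM against at most 13.5 FPKM. Their part in the values of C2 was not tested. The log2 fold change of C2 with IOP at 3 months was 2.24 (SE 0.380, adjusted p = 0.0531), and between treated eyes it was lower at 18 months by limma, at -2.61 (SE 0.380, adjusted p = 0.00464). The interaction was -2.33 (SE 0.537, adjusted p = 1.00). In the recurring table it was below the filter, at 0.230 and 0.135 FPKM in control and 0.414 and 0.180 FPKM in treated eyes.

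The genes of the membrane attack complex, which Cd59a and Clu act on, were at or near the limit of measurement. Of these 7 genes (Hc, C6, C7, C8a, C8b, C8g and C9), none passed the filter in either table. C8g reached 0.546 FPKM and was above 3 reads in 11 of 12 libraries, and the other 6 stayed at or below 0.103 FPKM.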
